A study of Mus musculus with 4 samples.

Results

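The HOX cluster genes were taken as every gene of the deposited tables named Hoxa, Hoxb, Hoxc or Hoxd followed by a number, which gave 39 of the 22471 genes used. RNA was sequenced from 4 libraries of sorted spleen T cells of C57BL/6 background mice, 1 library per group, so differences could be neither tested nor checked against replicates. They came from invariant natural killer T (iNKT) cells of wild-type mice (WT iNKT), iNKT cells of Ezh2fl/fl CD4-Cre mice (KO iNKT), CD44-high CD4+ T cells of wild-type mice (WT CD44hi) and the same cells of Ezh2fl/fl CD4-Cre mice (KO CD44hi). In the Ezh2fl/fl CD4-Cre mice the Cre recombinase is driven by Cd4 sequences and is meant to remove the floxed part of Ezh2 from T cells, so both sorted cell types of these mice were meant to carry the deletion. Cells stained for the beta chain of the T cell receptor were sorted as iNKT cells if they bound CD1d tetramer loaded with PBS-57, and as CD44hi cells by their CD4 and high CD44. The labels give no age and do not say how many mice were pooled. The comparisons asked how the HOX genes differ between genotypes within a cell type and between cell types within a genotype, and each library enters a pair of these comparisons.

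HOX genes encode homeodomain transcription factors that give cells a position along the body axis, and they lie in clusters whose gene order follows the order of their use along that axis. They are classic targets of Polycomb repressive complex 2 (PRC2), whose catalytic subunit Ezh2 methylates histone H3 at lysine 27, and trithorax-group proteins such as Kmt2a keep them active. In blood, many Hoxa and Hoxb genes are used by stem and progenitor cells, together with cofactors of the TALE family, and are mostly shut off as cells mature.

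The clusters are given on GRCm38, the assembly called mm10. Hoxa (11 genes) lies on the minus strand at chr6:52155590-52260880, Hoxb (10 genes) on the plus strand at chr11:96194316-96368256, Hoxc (9 genes) on the plus strand at chr15:102921103-103036852, and Hoxd (9 genes) on the plus strand at chr2:74668310-74765142. A promoter dense in CG dinucleotides is a common trait of Polycomb targets. RefSeq promoters (GRCm38.p6) were at hand for 22 of the 39 HOX genes. The 250 bases before the start of 24 HOX promoters held a median of 12.5 CG dinucleotides (2 to 35), against 6 over all 32851 promoters of the table. The letters searched were CG, which reads the same on both strands. Windows of 4 genes are shown, each 5′ to 3′ on the gene's own strand with every CG in capitals. Hoxa5 (chr6:52204588-52204837, minus strand) and Hoxb4 (chr11:96318017-96318266, plus strand) are 2 of the 3 HOX genes that reached 1 FPKM, Hoxa9 (chr6:52227371-52227620, minus strand) was listed above 0 in KO CD44hi and in no other library, and Hoxa13 (chr6:52260881-52261130, minus strand) was listed at 0 in all 4.
Hoxa5: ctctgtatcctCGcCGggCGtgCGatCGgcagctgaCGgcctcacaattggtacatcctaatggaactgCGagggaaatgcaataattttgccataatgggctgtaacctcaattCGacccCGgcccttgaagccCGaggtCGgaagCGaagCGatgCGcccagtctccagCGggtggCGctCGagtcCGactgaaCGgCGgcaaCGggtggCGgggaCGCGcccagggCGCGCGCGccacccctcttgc
Hoxb4: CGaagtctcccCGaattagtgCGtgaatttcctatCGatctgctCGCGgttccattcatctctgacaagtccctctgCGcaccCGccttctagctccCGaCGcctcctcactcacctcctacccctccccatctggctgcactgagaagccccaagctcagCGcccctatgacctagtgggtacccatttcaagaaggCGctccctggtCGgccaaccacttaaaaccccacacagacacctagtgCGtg
Hoxa9: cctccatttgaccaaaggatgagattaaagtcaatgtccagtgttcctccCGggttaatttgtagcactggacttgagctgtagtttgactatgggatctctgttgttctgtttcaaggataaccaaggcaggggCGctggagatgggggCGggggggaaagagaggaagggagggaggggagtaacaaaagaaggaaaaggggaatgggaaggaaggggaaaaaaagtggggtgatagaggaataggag
Hoxa13: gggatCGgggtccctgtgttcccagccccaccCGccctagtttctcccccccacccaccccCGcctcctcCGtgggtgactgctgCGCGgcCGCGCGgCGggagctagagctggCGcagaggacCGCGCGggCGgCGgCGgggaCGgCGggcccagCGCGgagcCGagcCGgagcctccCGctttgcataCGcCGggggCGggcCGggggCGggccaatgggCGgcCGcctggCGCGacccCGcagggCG
The Hoxa5 window held 28 CG dinucleotides, a number that 7.61% of all promoters reached, and the Hoxb4 window held 14, reached by 29.4%. The Hoxa13 window had 35 (reached by 2.97%) and the Hoxa9 window 3 (reached by 71.0%). The gene listed at 0 thus had more CG dinucleotides than those with RNA, and the promoters of the HOX genes above 0.1 FPKM had a median of 11 over 8 promoters, against 12.5 over 16 for the others.

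Values are FPKM, which count fragments per length of transcript and per depth of library. The tables hold no counts, and depth was read from the smallest steps that low values take. Relative to WT iNKT the depth was 1.08 for KO iNKT, 3.69 for WT CD44hi and 4.90 for KO CD44hi. A single fragment in a transcript of 2 kilobases was worth 0.108 FPKM in the WT and 0.0998 in the KO iNKT library, against 0.0292 in the WT and 0.0220 in the KO CD44hi library. A HOX transcript at a low level could therefore be listed above 0 in a CD44hi library and at 0 in an iNKT library with no difference in level. Ratios carry 95% exact (Clopper-Pearson) intervals on the estimated fragments, which cover counting error only and not variation between mice or sorts. A value of 0 allows up to 3 fragments, and the FPKM of 3 fragments is given as the limit of that library. A fold given as at least so much is the end of its interval nearer to equality.

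HOX RNA was low in every library and differed in composition between the cell types. In bulk RNA fewer cells of a type and less RNA per cell cannot be told apart. Hoxb4 and Hoxb3 were the only members listed above 0 in all 4 libraries. The CD44hi libraries held in addition Hoxa2, Hoxa3, Hoxa5, Hoxa6, Hoxa7, Hoxc4 and Hoxc6, each with a higher value in KO CD44hi than in WT CD44hi. In the iNKT libraries no member was higher in KO than in WT. In all, 20 of the 39 genes were listed at 0 in all 4 libraries, 19 were above 0 in at least 1 and 3 (Hoxa5, Hoxa7 and Hoxb4) reached 1 FPKM. For the 20 genes at 0, among them the Hoxb genes Hoxb5 to Hoxb8 and the limb gene Hoxd12, the limit of 3 fragments lay between 0.184 and 0.696 FPKM in WT iNKT and between 0.0376 and 0.142 FPKM in KO CD44hi, depending on transcript length.

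**Figure D1:**
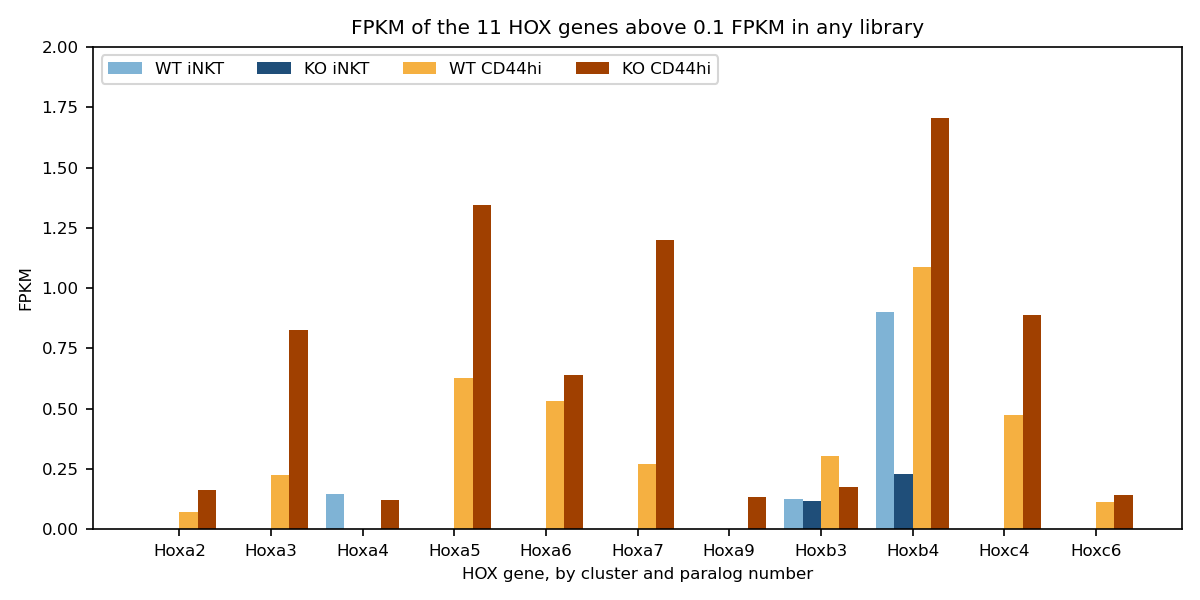
Bars give the FPKM (y axis) of the 11 HOX genes above 0.1 FPKM in any library (x axis, by cluster and paralog number) in the 4 libraries, with 1 library per bar and no error bar. Hoxb4 and Hoxb3 have bars in all 4 libraries, Hoxa3, Hoxa5, Hoxa6 and Hoxa7 are tallest in KO CD44hi, and no Hoxd gene reached the limit.

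Members listed above 0 numbered 5 in the WT (12.8% of the 39) and 2 in the KO iNKT library (5.13%), against 12 in the WT (30.8%) and 17 in the KO CD44hi library (43.6%). Over all genes the same shares were 58.8, 60.6, 69 and 71.4%, so the HOX share lay under the share of all genes in each library. At 0.1 FPKM or more the counts were 3, 2, 8 and 11 members, against 55.2, 56.7, 60.1 and 61.3% of all genes. Read at the value that 1 fragment has in WT iNKT, the counts were 5, 2, 7 and 10 members. At that shared floor the all-gene shares were 58% in either iNKT library, 61.5% in the WT and 62.6% in the KO CD44hi library. The order of the CD44hi libraries above the iNKT libraries was thus also there at a shared floor, with a smaller gap.

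The genes of paralog groups 4 to 8, used in the middle of the body axis, made up most of the HOX RNA. They gave 84.8% of the summed HOX FPKM in the WT and 66.4% in the KO iNKT library, and 81.7% in the WT and 81.4% in the KO CD44hi library. In KO iNKT that share was Hoxb4 alone, from 3 fragments. In WT iNKT Hoxb4 gave 0.901 of the 1.12 FPKM of these groups. Of the 15 genes of groups 4 to 8, 10 were above 0 in at least 1 library. Of the 8 genes of groups 1 to 3, used most anteriorly, 4 were, and of the 16 genes of groups 9 to 13, used most posteriorly, 5 were.

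Hoxb4, a transcription factor known for expanding blood stem cells when its level is raised, stood at 0.901 FPKM (11 fragments) in WT and 0.227 (3 fragments) in KO iNKT cells, and at 1.09 (49 fragments) in WT and 1.71 (102 fragments) in KO CD44hi cells. It was the highest HOX gene in each library, lowest in KO iNKT and highest in KO CD44hi. In iNKT cells the KO value was 0.252 times the WT value (interval 0.0452 to 0.955), while in CD44hi cells the KO value was 1.57 times the WT value (1.10 to 2.25). Between cell types, WT iNKT was at 0.828 times WT CD44hi (0.388 to 1.61), an interval that spans equality. KO iNKT was at 0.133 times KO CD44hi (0.0270 to 0.401).

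Hoxb3, its neighbour, which acts with Hoxb4 in blood progenitors, stood at 0.125 FPKM in WT and 0.115 in KO iNKT cells, and at 0.304 in WT and 0.174 in KO CD44hi cells. It was the named gene with a lower value in KO CD44hi than in WT CD44hi, at 0.571 times (0.257 to 1.26), an interval that spans equality. Its values rest on 2, 2, 17 and 13 fragments, estimated less surely since they were not whole multiples of the length-based step. Hoxb3 also shares exon sequence with the opposite-strand gene Hoxb3os, and the library kit does not mark strand, so reads of the pair cannot be told apart.

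Hoxa5, which patterns the neck vertebrae and the lung, was listed at 0 in WT iNKT and KO iNKT and stood at 0.627 FPKM in WT CD44hi (20 fragments) and 1.35 in KO CD44hi (57 fragments). Both CD44hi values were above the 3-fragment limits of the iNKT libraries, 0.347 FPKM in WT iNKT and 0.321 in KO iNKT. By its intervals Hoxa5 was at least 1.34-fold lower in WT iNKT than in WT CD44hi. It was at least 3.30-fold lower in KO iNKT than in KO CD44hi. Within CD44hi cells the KO value was 2.15 times the WT value (1.27 to 3.77). Hoxa5 overlaps no other annotated exon.

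Hoxa7, which patterns the trunk and is active in blood progenitors, was at 0 in both iNKT libraries and stood at 0.270 FPKM (9 fragments) in WT and 1.20 (53 fragments) in KO CD44hi cells. The KO CD44hi value was 4.43 times that of WT CD44hi (2.17 to 10.2). Against KO CD44hi, KO iNKT was at least 3.06-fold lower. The WT CD44hi value lay under the WT iNKT limit of 0.332 FPKM, so a difference between the WT libraries was not detectable at this depth. Hoxa7 shares exon sequence with the opposite-strand RNA Hoxaas3.

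Hoxa3, needed for the thymus and parathyroid to form, was at 0 in both iNKT libraries and stood at 0.224 FPKM (10 fragments) in WT and 0.828 (49 fragments) in KO CD44hi cells. The KO CD44hi value was 3.69 times the WT CD44hi value (1.85 to 8.17). KO iNKT was at least 2.82-fold lower than KO CD44hi, while the WT iNKT limit of 0.248 FPKM lay above the WT CD44hi value. Hoxa3 shares exon sequence with the opposite-strand genes Hoxaas2, Hoxaas3, 5730596B20Rik and Gm29430 and with the same-strand gene Gm28308. Reads of the shared sequence cannot be told apart from its own.

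The other named Hoxa genes rest on few fragments. Hoxa6, a trunk patterning gene with a short transcript, was at 0 in both iNKT libraries and stood at 0.530 FPKM in WT and 0.638 in KO CD44hi cells, a ratio of 1.20 (0.347 to 4.68). Its fragments are known up to their ratio of 5 to 8. Hoxa2, a hindbrain gene, was at 0 in both iNKT libraries and stood at 0.0711 FPKM (2 fragments) in WT and 0.161 (6 fragments) in KO CD44hi cells, a ratio of 2.26 (0.404 to 22.9). Hoxa2 shares exon sequence with the same-strand gene Gm28308. Hoxa9, a leading HOX gene of blood progenitors and of leukaemias with Kmt2a rearrangements, was at 0 in WT iNKT, KO iNKT and WT CD44hi and at 0.134 FPKM in KO CD44hi (10 fragments). It was at least 1.69-fold higher in KO CD44hi than in WT CD44hi. Its KO CD44hi value lay under the limits of both iNKT libraries (0.196 FPKM in WT and 0.182 in KO). Part of the Hoxa9 annotation overlaps the same-strand microRNA gene Mir196b. Hoxa4, a neck patterning gene, was at 0.146 FPKM in WT iNKT from 1 fragment, at 0 in KO iNKT and WT CD44hi, and at 0.119 in KO CD44hi from 4 fragments. For Hoxa4 in KO CD44hi against WT CD44hi the interval began at 0.497 and had no upper end, so it spans equality. Hoxa4 shares exon sequence with the opposite-strand gene Gm29430.

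In the Hoxc cluster, Hoxc4, a cervical patterning gene also found in lymphocytes, was at 0 in both iNKT libraries and stood at 0.472 FPKM (18 fragments) in WT and 0.888 (45 fragments) in KO CD44hi cells. These fragments are known to within a step of their ratio of 2 to 5. The KO CD44hi value was 1.88 times the WT CD44hi value (1.07 to 3.45). WT iNKT was at least 1.19-fold lower than WT CD44hi, and KO iNKT at least 2.58-fold lower than KO CD44hi. Hoxc6, a thoracic gene, was at 0 in both iNKT libraries and stood at 0.113 FPKM (3 fragments) in WT and 0.142 (5 fragments) in KO CD44hi cells. Its ratio of 1.25 had an interval of 0.244 to 8.08, which spans equality.

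The other 8 members above 0 rested on 1 to 3 fragments per library. Next under the naming limit of 0.1 FPKM were Hoxb9, at 0.0776 FPKM in WT iNKT and 0.0158 in KO CD44hi, and Hoxc5, at 0.0766 in WT iNKT and 0.0156 in KO CD44hi, each from 1 fragment in either library. The remaining 6 were listed above 0 in CD44hi libraries alone.

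**Figure D2:**
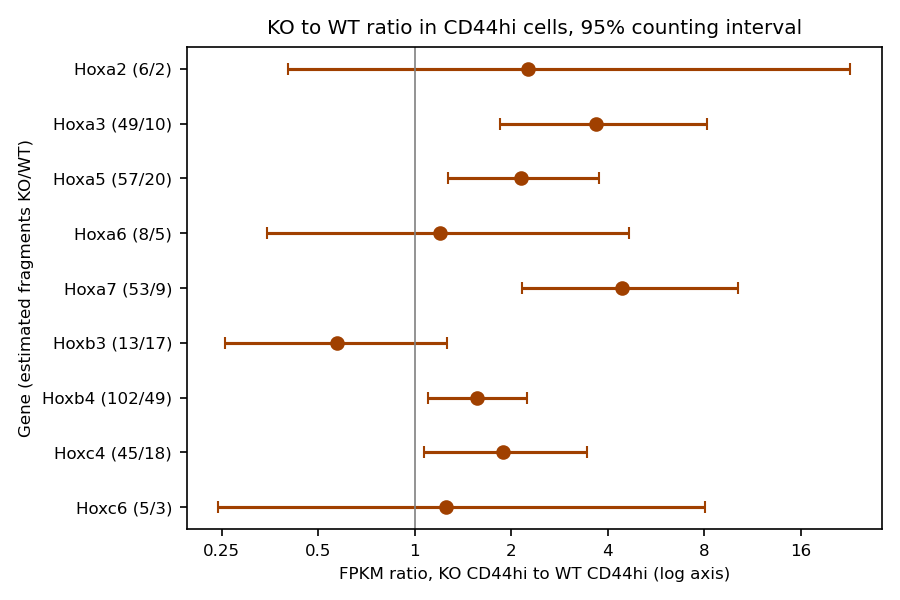
Points give the KO CD44hi to WT CD44hi ratio of FPKM (x axis, log scale) for the 9 named HOX genes above 0 in both libraries, with 95% intervals for counting error from the estimated fragments in parentheses. The intervals of Hoxa3 (1.85 to 8.17), Hoxa5, Hoxa7, Hoxb4 and Hoxc4 lie above 1, and Hoxb3 is the point under 1.

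Counted over the members, KO CD44hi against WT CD44hi leaned one way. Of the 19 members above 0 in either library, 16 were higher in KO CD44hi, against 54.7% of all genes above 0 in either library. The exceptions were Hoxb3 and 2 genes that rested on 1 or 2 fragments in WT CD44hi. Those of the 16 under the naming limit of 0.1 FPKM likewise rested on 1 to 3 fragments in KO CD44hi. Because KO CD44hi was the deeper library, the count was also made over the 11 members whose highest value was 0.1 FPKM or more. Of these, 10 were higher in KO CD44hi, against 60.2% of all genes whose highest value lay between 0.1 and 2 FPKM. Hoxa2 and Hoxa9 reached 0.1 FPKM in KO CD44hi alone, so this limit fixed their direction. By the rule used across genes, a 2-fold difference on the log2(FPKM + 1) scale among genes at 1 FPKM or more in either library, 0 of the 3 members measured were called, against 2.44% of all genes called higher and 1.14% called lower. That scale understates low genes. With 0.1 FPKM in place of 1 both as the added value and as the minimum, 4 of 11 members were higher by 2-fold (Hoxa3, Hoxa4, Hoxa7 and Hoxa9) and 0 lower, against 6.72% of all genes higher and 3.04% lower. Hoxa4 and Hoxa9 reached 0.1 FPKM in KO CD44hi and not in WT CD44hi, so they could be called only higher, and the interval of Hoxa4 spans equality. The median difference of the 11 was 0.79 on the log2(FPKM + 0.1) scale, against 0.03 over all genes. Between the same libraries 8 of 10 plasmacytoid dendritic cell markers and 6 of 7 measured red cell markers were also called higher in KO CD44hi, and their part in the HOX differences was not tested.

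For KO iNKT against WT iNKT the members were too low for the rule at 1 FPKM, which measured 0 of them, against 6.08% of all genes called higher and 3.33% called lower. All 5 members above 0 in either library (Hoxa4, Hoxb3, Hoxb4, Hoxb9 and Hoxc5) had the lower value in KO iNKT, against 44.3% of all genes, but 4 of the 5 rested on 1 or 2 fragments in WT iNKT. At 0.1 FPKM, Hoxa4 and Hoxb4 were lower by 2-fold among 3 members measured, against 7.96% of all genes, and 0 were higher, against 13.5%. Hoxa4 reached 0.1 FPKM in WT iNKT and not in KO iNKT, so it could be called only lower. Hoxb4 was the member of this comparison with an interval that did not reach 1.

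Between cell types within WT, 0 of 1 member measured at 1 FPKM was called, against 10.9% of all genes called lower in iNKT and 3.64% higher. At 0.1 FPKM, 6 of 9 members were lower in WT iNKT (Hoxa3, Hoxa5, Hoxa6, Hoxa7, Hoxc4 and Hoxc6), against 19.6% of all genes, and Hoxa4 was higher from 1 fragment, against 6.83%. Those 6 reached 0.1 FPKM in WT CD44hi and not in WT iNKT, and Hoxa4 the reverse, so the minimum fixed these directions. Of those 6, Hoxa5 and Hoxc4 had WT CD44hi values above the limit of WT iNKT. Within KO, Hoxa5, Hoxa7 and Hoxb4 were called lower in KO iNKT than in KO CD44hi, 3 of 3 measured, against 9.05% of all genes, and 0 higher, against 3.02%. All 3 reached 1 FPKM in KO CD44hi and not in KO iNKT, so the minimum fixed the direction of these calls. At 0.1 FPKM, 10 of 11 members were lower, against 17.2% of all genes, and 0 higher, against 6.41%. Of the 10, Hoxb4 alone reached 0.1 FPKM in KO iNKT too, so the direction of the others was fixed in the same way. By their intervals or limits, 5 of the 10 (Hoxa3, Hoxa5, Hoxa7, Hoxb4 and Hoxc4) differed by more than the depth of KO iNKT could hide.

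Summed over all 39 genes, HOX FPKM was 1.33 in WT and 0.343 in KO iNKT cells, and 3.80 in WT and 7.50 in KO CD44hi cells, from 16, 5, 137 and 362 fragments. KO iNKT was lowest and KO CD44hi highest. In fragments per depth, KO CD44hi held 1.99 times WT CD44hi (1.63 to 2.44) and KO iNKT held 0.289 times WT iNKT (0.0829 to 0.826). Without Hoxb4 these ratios were 2.22 (1.74 to 2.87) and 0.370 (0.0352 to 2.26), so the difference between the iNKT libraries was beyond counting error only with Hoxb4 in the sum.

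By cluster, the Hoxa sum was 0.146 FPKM in WT and 0 in KO iNKT cells, and 1.77 in WT and 4.48 in KO CD44hi cells. Its KO to WT ratio in CD44hi cells was 2.98 in fragments per depth (2.16 to 4.18). Hoxa made up 11.0% of the HOX sum in WT iNKT, against 46.7% in the WT and 59.7% in the KO CD44hi library. The Hoxb sum was 1.10 FPKM in WT and 0.343 in KO iNKT cells, and 1.39 in WT and 1.93 in KO CD44hi cells, with a CD44hi ratio of 1.35 (0.988 to 1.85) that spans equality. The Hoxc sum was 0.0766 FPKM in WT and 0 in KO iNKT cells, and 0.586 in WT and 1.05 in KO CD44hi cells, with a CD44hi ratio of 1.83 (1.08 to 3.20). The Hoxd sum was 0 in both iNKT libraries and came to 0.0461 FPKM in WT and 0.0492 in KO CD44hi cells. The Hoxa interval lay wholly above the Hoxb interval.

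**Figure D3:**
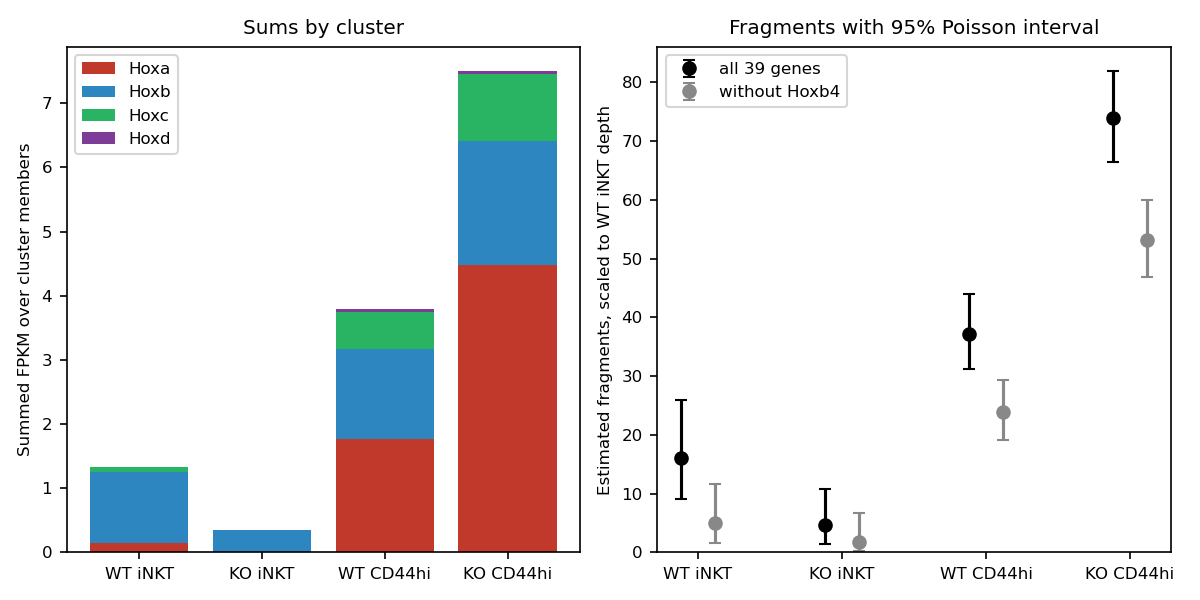
The left panel stacks the summed FPKM of the Hoxa, Hoxb, Hoxc and Hoxd genes in each library, and the right panel gives the estimated HOX fragments scaled to the depth of WT iNKT with 95% Poisson intervals, for all 39 genes and without Hoxb4. The KO CD44hi sum of 7.50 is mostly Hoxa, whereas the iNKT sums of 1.33 and 0.343 are mostly Hoxb4.

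Among regulators of the clusters, the Polycomb genes were present in every library. Of 11 PRC2 genes, 11 were measured and 0 were called between genotypes in either cell type. By the rule at 0.1 FPKM, 1 of 11 was lower in KO iNKT, against 7.96% of all genes. It was Phf1, at 78.2 FPKM in WT and 38.6 in KO iNKT cells. Ezh2 was at 15.3 FPKM in WT and 16.8 in KO iNKT cells, and at 28.9 in WT and 18.5 in KO CD44hi cells. A value over the whole gene does not show whether the floxed part was removed, and exon-level values were not analysed here, so the genotype labels have no check. Of 16 PRC1 genes, 16 were measured, and 1 was called lower in KO iNKT and 0 between the CD44hi genotypes. Pcgf1, named after its values were seen, was at 7.80 FPKM in the WT and 2.14 in the KO iNKT library, and at 11.4 in the WT and 9.14 in the KO CD44hi library. Of 3 H3K27 demethylases, the Y-linked Uty was called lower in KO CD44hi, at 1.93 FPKM in the WT and 0.0157 in the KO library. Of 14 measured trithorax-group genes and their partners, 0 were called between genotypes. Kmt2a, listed under its older name Mll1, was at 16.7 FPKM in WT and 15.98 in KO iNKT cells, and at 35.4 in WT and 31.0 in KO CD44hi cells, and was called lower in WT iNKT than in WT CD44hi. Cdx1, Cdx2 and Cdx4, direct activators of HOX genes in the embryo, were listed at 0 throughout.

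Of 9 TALE cofactors, which bind DNA together with HOX proteins, 5 were above 0 in each iNKT library and 8 in each CD44hi library. Over all genes, 58.8% in WT and 60.6% in KO iNKT were above 0, and 69% in WT and 71.4% in KO CD44hi. The CD44hi libraries were the deeper ones, so counts above 0 do not separate depth from level. Meis1, the main partner of Hoxa9 in blood progenitors, was at 0 in both iNKT libraries and stood at 0.357 FPKM in WT and 0.781 in KO CD44hi cells. Pbx3 was at 0.796 FPKM in WT and 5.24 in KO iNKT cells, and at 2.35 in WT and 3.32 in KO CD44hi cells, and it was the 1 member of 5 measured that was called higher in KO iNKT. It had no counterpart among the HOX genes, none of which was higher in KO iNKT than in WT iNKT.

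Of 19 genes beside the clusters, 17 were above 0 in all 4 libraries. Of the 19, 16 were measured in iNKT cells and 17 in CD44hi cells, and 0 were called between genotypes. By the rule at 0.1 FPKM, 1 of 17 (Nckap1) was lower in KO in each cell type. Over all genes, 7.96% were lower in KO iNKT and 3.04% in KO CD44hi by that rule. The highest, Atp5g3 beside Hoxd, was at 264 FPKM in WT and 315 in KO iNKT cells, and at 142 in WT and 160 in KO CD44hi cells. Skap2, beside the Hoxa cluster, chosen after its values were seen, was at 6.88 FPKM in WT and 6.49 in KO iNKT cells, and at 17.6 in WT and 27.2 in KO CD44hi cells, the order of the Hoxa sum in the CD44hi libraries. Inside the clusters Evx1, Evx2, Hotair and Hoxa11as were listed at 0 in all 4 libraries.

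Other developmental regulators known as PRC2 targets were low too. Of 59 in the files, 0 reached 1 FPKM, and 5, 5, 16 and 17 were above 0 in the WT and KO iNKT and the WT and KO CD44hi libraries, in that order. Over all genes the shares above 0 were 58.8, 60.6, 69 and 71.4% in the same order. The CD44hi libraries were the deeper ones, so these counts do not separate depth from level. At 0.1 FPKM, 1 of 5 was higher in KO CD44hi by 2-fold, Pax9 (0.0221 FPKM in WT CD44hi and 0.467 in KO CD44hi), against 6.72% of all genes. This stood beside the 4 of 11 HOX genes, a difference in share that was not tested. In iNKT cells 1 of 4 was higher in KO, Dlx1 (0 FPKM in WT iNKT and 0.209 in KO iNKT), against 13.5% of all genes. Pax9 and Dlx1 reached 0.1 FPKM in the KO library alone of their pair, so they could be called only higher. Cdkn2a, a cell cycle inhibitor locus repressed by PRC2 in many tissues, was at 0.899 FPKM in WT and 0 in KO iNKT cells, and at 0.362 in WT and 1.47 in KO CD44hi cells, the same order of genotypes in each cell type as Hoxb4.

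T cell identity genes were present in all 4 libraries, 10 of 10 at 1 FPKM or more, and Cd3g lay between 513 and 631 FPKM. Markers of other cells also differed between the libraries, and not all in 1 direction. Siglech, which defines plasmacytoid dendritic cells, was at 0 in both iNKT libraries and stood at 11.1 FPKM in WT and 75.7 in KO CD44hi cells, and 8 of the 10 markers of these cells were called higher in KO CD44hi than in WT CD44hi. Their summed FPKM was 162 in WT and 128 in KO iNKT cells, and 187 in WT and 730 in KO CD44hi cells. The iNKT sums were mostly Bst2, an interferon-induced gene of many cells, at 101 FPKM in the WT and 78.7 in the KO library, and Klk1 and Spib were at or near 0 there beside Siglech.

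Of 10 markers of blood progenitors, 6 were measured between the CD44hi genotypes and 0 were called. Flt3, a receptor of early progenitors and dendritic cells, was at 0.168 FPKM in WT and 0.0519 in KO iNKT cells, and at 11.8 in WT and 20.2 in KO CD44hi cells. Kit, the stem cell factor receptor, was at 0.0390 FPKM in WT and 0.108 in KO iNKT cells, and at 7.25 in WT and 8.49 in KO CD44hi cells. Cd93 stood at 4.60 FPKM in WT and 0.445 in KO iNKT cells, and at 0.800 in WT and 1.66 in KO CD44hi cells, and was called lower in KO iNKT. Hlf, named after its values were seen, went the other way between the CD44hi libraries, at 1.45 FPKM in WT and 0.630 in KO, and was called lower in KO CD44hi by the rule at 0.1 FPKM. The defining markers Mecom, Gata2 and Cd34 were at 0 or at most 0.185 FPKM in every library. The list's summed FPKM, mostly Ly6a, which T cells also express, ran from 199 in WT CD44hi to 491 in WT iNKT.

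Red cell markers summed to 19.0 FPKM in WT and 18.0 in KO iNKT cells, and 151 in WT and 729 in KO CD44hi cells, and 6 of 7 measured were higher in KO CD44hi than in WT CD44hi. B cell markers summed to 2.03, 4.42, 61.5 and 93.7 FPKM in the same order of libraries (1 of 9 measured called higher in KO CD44hi, with Pax5 and Ebf1 at 0 in both iNKT libraries), and myeloid markers to 26.95, 14.1, 314 and 591 FPKM (2 of 8 called higher). NK cell and innate lymphoid cell markers summed to 649 FPKM in WT and 274 in KO iNKT cells, and 233 in WT and 459 in KO CD44hi cells, with 2 of 7 measured called higher in KO CD44hi, and with 3 of 7 called higher and 3 lower in KO iNKT. Tyrobp, at 121 FPKM in WT and 305 in KO CD44hi cells, is on both the myeloid and the NK list. It was called higher in both, so the 2 lists are not separate. By the rule at 0.1 FPKM, Ncr1 and Eomes of the NK list were called lower in KO CD44hi. Platelet markers summed to 75.6, 25.3, 14.3 and 23.3 FPKM, stromal and endothelial markers to 22.3, 54.8, 41.2 and 49.6, and the 2 CD8 genes to 0.958, 0.316, 11.2 and 17.1. Between the CD44hi genotypes 0 platelet, 1 stromal and 0 CD8 genes were called, the stromal gene higher in KO. The sums of NK, platelet, stromal and blood progenitor markers did not follow the order of the Hoxa sum. The B cell sum did not follow it between the iNKT libraries. Single genes made up most of 3 of these sums, so their order does not show that of the other markers. In WT iNKT, Itgb3 was at 75.0 FPKM in the platelet list and Pecam1 at 22.1 in the stromal list. Ly6a was at 486 FPKM in the blood progenitor list in the same library. The part of any of these cell types in the HOX differences was not tested either. In WT CD44hi the Y-linked Eif2s3y stood at 22.7 and Ddx3y at 11.5 FPKM, and both were at 0 or near 0 in the other libraries. Xist, made from the inactive X chromosome of females, stood at 55.3 FPKM in WT and 76.8 in KO iNKT cells, and at 46.8 in WT and 80.0 in KO CD44hi cells, so WT CD44hi held both kinds of RNA. The source of its Y-linked RNA and the genotype or cell type cannot be told apart in the comparisons that use it.

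**Figure D4:**
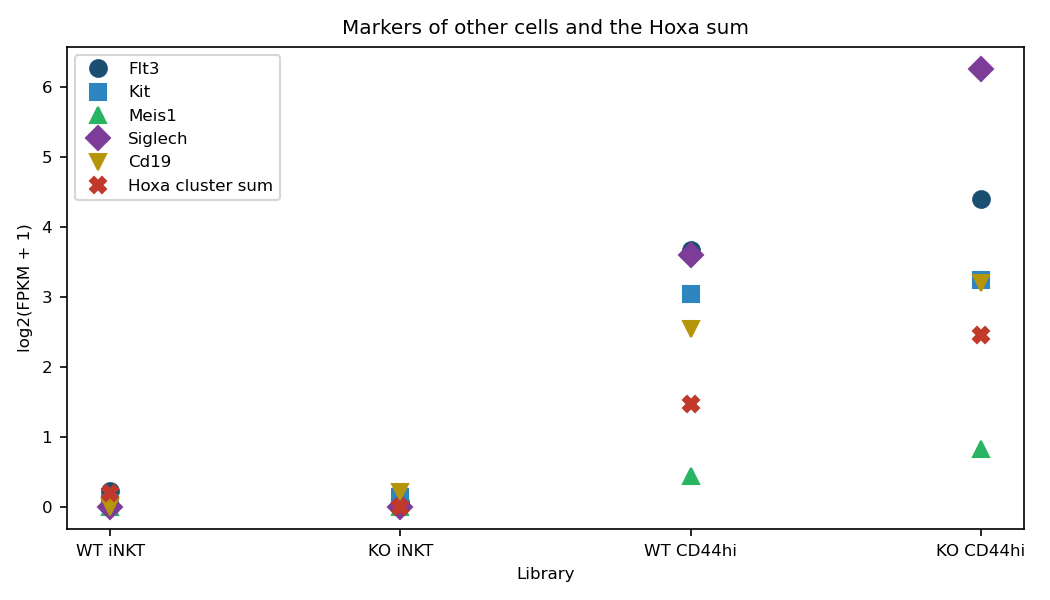
Points give log2(FPKM + 1) (y axis) of markers of other cells, of the HOX cofactor Meis1 and of the Hoxa cluster sum in each of the 4 libraries (x axis), with 1 library per point and no error bar. The genes were chosen after their values were seen, and other markers of the same lists, such as Bst2, Hlf and Cd93, have other patterns. Each of the 6 is near 0 in both iNKT libraries and higher in KO CD44hi than in WT CD44hi, with Siglech at 0, 0, 11.1 and 75.7 FPKM.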

How the data were processed

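RNA of 4 libraries was compared, 1 per group. The authors deposited 1 table per library of gene symbols with FPKM values, per the file headers. Cufflinks 2.0.2, TopHat 1.3.2, Bowtie2 2.0.0 and the build mm10 are named, with no roles, per the submitters' processing notes. The annotation, filters and strand setting are not given in the sources used here, and the TruSeq RNA kit v2 of the labels' protocols does not mark strand. The tables held 23720 (iNKT) or 23746 (CD44hi) rows. The 26 symbols not in all 4 tables and 787 small RNA symbols were left out, 240 repeated symbols were summed, and 22471 genes remained.

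Fragments were estimated from the smallest steps of low FPKM, with the longest GENCODE M21 transcript less 190 bases as length. Of 180 genes used for the steps, 101 lay on the fitted line. The estimate was tested on simulated data, where the relative depths were recovered and the length correction was not recovered exactly. Of the 19 HOX genes above 0, 17 gave whole fragments within 0.02. The step of each gene could be rescaled to reach whole fragments, so the 6 genes above 0 in 1 library could not fail. This count is therefore no check of the estimates. Calls used 2-fold on log2(FPKM + 1) at 1 FPKM or more in either library. Intervals are 95% exact (Clopper-Pearson). Python 3.11.15, pandas 2.3.3 and scipy 1.17.1 were used. Named HOX genes exceeded 0.1 FPKM in any library, and other lists name at most 4 members by highest FPKM, besides Ezh2, Kmt2a, Meis1, Pbx3, Cdkn2a, Y-linked genes and markers at or near 0. Further genes of these lists were named after their values were seen. Some items are not reported here. The members and lists were chosen with earlier results of these data known. Alternatives were other added values, minimums, scalings and detection limits.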

Additional observations from a re-analysis of the deposited data

Results flagged for a closer look

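The KO minus WT difference had opposite signs in iNKT and CD44hi cells for 4 HOX genes and 4 sums, lower in KO iNKT and higher in KO CD44hi. With 1 library per group these differences were not tested. The CD44hi difference less the iNKT difference was 1.29 FPKM for Hoxb4 (0.62 in CD44hi and -0.67 in iNKT). It was 0.266 FPKM for Hoxa4, 0.0934 for Hoxb9 and 0.0923 for Hoxc5, each from 1 fragment in WT iNKT. For the sums it was 2.85 FPKM over Hoxa, 1.2995 over Hoxb, 0.538 over Hoxc and 4.69 over all 39 HOX genes. Without Hoxb4 the iNKT side of the last sum rests on 5 fragments in WT and 2 in KO. In the Hoxa and Hoxc sums it rests on 1 fragment in WT iNKT.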

How the results depend on the processing

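With 0.1 FPKM as added value and minimum, HOX calls went from 0 to 2 lower in KO iNKT against WT iNKT, from 0 to 4 higher in KO CD44hi against WT CD44hi, from 0 to 6 lower and 0 to 1 higher in WT iNKT against WT CD44hi, and from 3 to 10 lower in KO iNKT against KO CD44hi. With 0.1 added at a minimum of 1 FPKM, 1 was higher in KO CD44hi. With FPKM scaled to TPM, the calls were 1 lower in KO iNKT, 1 higher in KO CD44hi, 3 lower in WT iNKT and 6 lower in KO iNKT against KO CD44hi, and the HOX sums were 3.58 in WT and 0.916 in KO iNKT cells, and 10.5 in WT and 19.8 in KO CD44hi cells, since the same minimum and added value then lie lower on the FPKM scale. Without Hoxb4 the sums were 0.425 in WT and 0.115 in KO iNKT cells, and 2.71 in WT and 5.80 in KO CD44hi cells. Members detected numbered 3 in WT iNKT and 11 in KO CD44hi at 0.1 FPKM, and 7 in WT CD44hi and 10 in KO CD44hi at the value of 1 WT iNKT fragment. Mean in place of longest transcript length gave 313 in place of 362 fragments in KO CD44hi. At 0.05 FPKM 9 were detected in WT CD44hi and 12 in KO CD44hi, and at 0.1 FPKM 8 in WT CD44hi. No direction was reversed. No replicate could be left out with 1 library per group. No paired analysis was possible because each group has 1 library and the labels carry no replicate numbers. Depth limits the iNKT libraries, where 1 fragment in 2 kilobases is worth about 0.1 FPKM.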
